A study of Mus musculus with 2 samples.

Results

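Glycinergic neurons that carry RNA of Slc6a5 were examined in the mouse spinal cord on day 7 after a contusion injury. Members were nuclei with more than 1500 UMIs (unique molecular identifiers, each marking 1 captured RNA molecule) and under 5% of them from mitochondrially encoded genes. They had at least 8 UMIs summed over the neuronal genes Snhg11, Rbfox3, Syt1 and Celf4, at least 2 UMIs of Slc6a5, at most 1 of Slc17a6 and at most 1 over Chat and Slc5a7. This rule found 1564 members among 32380 barcodes, of which 855 were AEVs and 709 were PBS nuclei. The study injured C57BL/6 mice of 6 to 8 weeks at the T10 vertebra with a 5 g rod of 1 mm diameter that fell 6 cm. The AEVs group then had 100 µg of protein of athlete-derived extracellular vesicles, in 100 µL of PBS, injected into the tail vein on each of 5 days. The PBS group had 100 µL of PBS alone on the same schedule, and both groups had the injury, the anaesthesia and daily antibiotics. Each library pooled 3 mice, so there was 1 sample per group and no test between groups, and all intervals below are exact 95% intervals for counting error only.

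Glycine and GABA are the fast inhibitory transmitters of the spinal cord. Slc6a5 encodes the transporter that returns glycine to the nerve terminal, and Slc32a1 encodes the vesicular transporter that packs both glycine and GABA. Gad1 and Gad2 encode the enzymes that make GABA from glutamate, and many spinal neurons hold both transmitters. Glycinergic neurons of the cord include local interneurons of the dorsal horn that gate touch and pain, and ventral classes such as Renshaw cells and Ia inhibitory interneurons that act on motor neurons.

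Slc6a5 (ENSMUSG00000039728) lies at chr7:49910146-49963856 on the plus strand, Slc32a1 (ENSMUSG00000037771) at chr2:158610767-158615748, Gad1 at chr2:70553072-70602014 and Gad2 at chr2:22622205-22693874, all plus strand in the GENCODE release M21 annotation of the mm10 build. The promoters of these 4 genes are shown because the rule used Slc6a5 and the others are markers of inhibitory neurons. They are also shown because the level of Nfib, a nuclear factor I gene whose protein binds TTGGC, differed among members further below. Each sequence is 1 RefSeq window of 300 bases on GRCm38.p6, from 250 bases before to 50 after a transcript start, read on the plus strand. The windows are chr7:49910049-49910348 for Slc6a5, chr2:158610508-158610807 for Slc32a1, chr2:70561879-70562178 for Gad1 and chr2:22622077-22622376 for Gad2. Capitals mark TTGGC or its reverse complement GCCAA.
Slc6a5: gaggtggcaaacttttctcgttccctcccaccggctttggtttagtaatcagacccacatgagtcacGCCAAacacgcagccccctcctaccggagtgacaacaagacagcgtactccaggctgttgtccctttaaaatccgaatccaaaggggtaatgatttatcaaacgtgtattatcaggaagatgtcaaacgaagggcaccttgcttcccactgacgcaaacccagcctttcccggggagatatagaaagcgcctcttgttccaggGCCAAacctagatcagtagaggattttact
Slc32a1: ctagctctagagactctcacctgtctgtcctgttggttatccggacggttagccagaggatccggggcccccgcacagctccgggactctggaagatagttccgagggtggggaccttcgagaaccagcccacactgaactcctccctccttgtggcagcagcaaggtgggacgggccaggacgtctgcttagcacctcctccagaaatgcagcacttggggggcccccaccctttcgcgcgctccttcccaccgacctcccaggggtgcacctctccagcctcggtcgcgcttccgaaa
Gad1: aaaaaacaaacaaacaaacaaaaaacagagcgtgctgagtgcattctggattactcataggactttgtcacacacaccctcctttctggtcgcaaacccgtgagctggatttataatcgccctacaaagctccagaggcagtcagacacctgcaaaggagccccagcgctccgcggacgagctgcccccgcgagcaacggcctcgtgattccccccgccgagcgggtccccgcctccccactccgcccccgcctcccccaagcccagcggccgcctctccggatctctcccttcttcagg
Gad2: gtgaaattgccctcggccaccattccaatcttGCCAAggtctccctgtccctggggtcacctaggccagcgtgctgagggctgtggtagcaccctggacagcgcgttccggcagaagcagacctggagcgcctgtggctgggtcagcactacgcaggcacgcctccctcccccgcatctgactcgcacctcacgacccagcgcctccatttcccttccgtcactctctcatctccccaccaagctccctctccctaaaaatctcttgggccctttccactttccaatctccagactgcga
The Slc6a5 window held 2 matches and the Gad2 window 1, all on the minus strand, and the Slc32a1 and Gad1 windows held 0. The motif was found on either strand in 46.7% of the 32851 promoter windows of the table, so a match is common and is given only as a description.

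The libraries held 17055 barcodes and 81875882 UMIs (AEVs) and 15325 barcodes and 82953601 UMIs (PBS), and 177 barcodes occurred in both, among them 13 AEVs and 10 PBS members. Of the barcodes, 13390 (AEVs) and 11866 (PBS) passed the UMI and mitochondrial limits, and 5271 and 3698 of them met the neuronal limit. Members had a median of 11209 UMIs and 4417 genes in the AEVs library, against 15047 UMIs and 4948 genes for PBS, and together held 11154920 and 12591360 UMIs. AEVs members were therefore shallower, and a limit of 2 UMIs is harder to reach in a shallow nucleus. Levels below are in CPM, a gene's UMIs per 1000000 UMIs of the class, which are not scaled for gene length, so they compare samples or classes and not genes.

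The label was checked against its markers. Slc6a5, which the rule used, stood at 314 CPM in AEVs members and 279 CPM in PBS members. In nuclei defined by oligodendrocyte markers, which should lack the gene, it stood at 5.06 CPM (AEVs) and 4.83 CPM (PBS), and 1.23% and 1.41% of those nuclei, at median depths of 2191.5 and 2525.5 UMIs, had a UMI. Slc32a1, which the rule did not use, was found in 86.5% of AEVs and 83.1% of PBS members, and at least 1 of the GABA enzymes in most of them. Exactly 2 UMIs of Slc6a5 were held by 317 AEVs and 201 PBS members, while 543 and 333 neurons with 1 UMI lay just outside the limit. The limit on Slc17a6 left out 56 AEVs and 72 PBS neurons, and that on Chat and Slc5a7 left out 9 and 17. Nuclei with 5 or more UMIs of glial or myeloid markers made up 40.0% of AEVs and 55.3% of PBS members, with a median of 2 and 4 oligodendrocyte marker UMIs per nucleus. No doublet caller was run, and the part of these UMIs in the results was not tested.

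Members were set beside 2 other classes of neurons of the same libraries. GABAergic neurons had 0 UMIs of Slc6a5 and at least 2 over Gad1 and Gad2, with at most 1 of Slc17a6, and numbered 609 (AEVs) and 415 (PBS). Excitatory neurons had at least 2 UMIs of Slc17a6, 0 of Slc6a5 and at most 1 over Gad1 and Gad2, and numbered 1520 and 1186. Both classes kept the limit of at most 1 UMI over Chat and Slc5a7. Slc6a5, Slc17a6, Gad1 and Gad2 are therefore fixed by the rules, and differences between classes are descriptions without a test. Slc32a1 stood at 197 CPM in AEVs and 145 CPM in PBS members, close to the 207 and 157 CPM of GABAergic neurons and far above the 3.04 and 2.44 CPM of excitatory neurons. Gad1 stood at 120 (AEVs) and 104 CPM (PBS) in members, against 229 and 226 CPM in GABAergic neurons. Gad2 stood at 152 and 160 CPM in members, against 273 and 296 CPM. Glycinergic nuclei thus held nearly as much vesicular transporter RNA as GABAergic nuclei but less RNA of the GABA-making enzymes, on which the GABAergic class was defined.

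**Figure D1:**
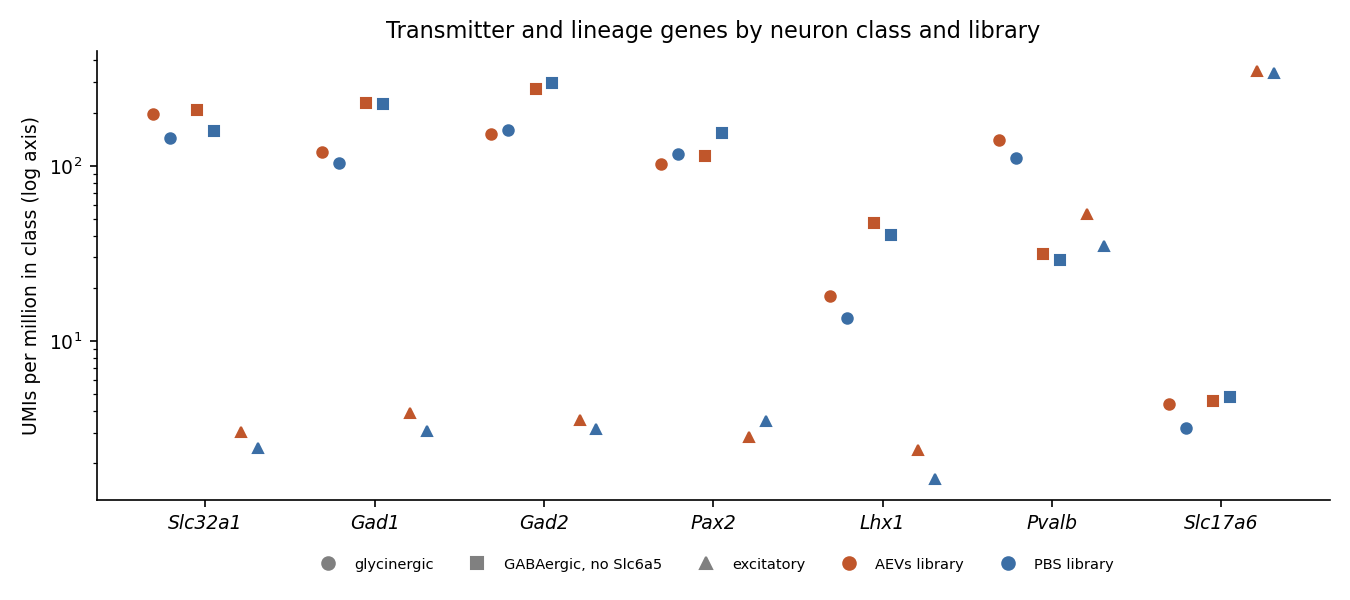
Levels of transmitter and lineage genes in CPM (log axis) in glycinergic (circles), GABAergic (squares) and excitatory neurons (triangles), with the AEVs library left of the PBS library. Slc32a1 is at 197 and 145 CPM in glycinergic neurons and at 3.04 and 2.44 CPM in excitatory neurons, and Pvalb is higher in glycinergic than in GABAergic neurons in both libraries.

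To compare shares of nuclei with a UMI, each nucleus was thinned to 5000 UMIs, which kept 828 AEVs and 697 PBS members and left out 27 and 12 shallower ones. At this depth Slc32a1 was seen in 62.6% of AEVs and 51.1% of PBS members, Gad2 in 49.6% and 48.4%, and Gad1 in 38.3% and 37.7%. Among the receptors, Glra1, the glycine receptor subunit of the adult cord, was seen in 73.9% (AEVs) and 77.9% (PBS) of members. Glrb, the subunit that anchors the receptor to gephyrin, was seen in 74.2% and 71.7%. Glra3 was less frequent in members, at 27.7% (AEVs) and 28.1% (PBS), than in GABAergic neurons, at 47.1% and 54.6%.

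Of 15 transcription factor genes of the inhibitory lineage list with at least 20 UMIs over both classes in each library, 13 were higher in members than in excitatory neurons in both libraries, 10 of them at least 2-fold, Rora was lower and Lbx1 was split. Over all genes, 0.762% were at least 2-fold higher in members than in excitatory neurons in both libraries. Against GABAergic neurons, 12 of 16 were lower in members in both libraries. The shares of all genes higher or lower by any amount are not given, so these counts are only descriptions. Pax2, which keeps dorsal neurons on the inhibitory path, stood at 103 CPM in AEVs and 117 CPM in PBS members, against 2.85 and 3.51 CPM in excitatory neurons. Pax8 stood at 45.0 and 37.2 CPM in members, against 1.17 and 0.626 CPM. Lhx1 and Lhx5, LIM factors of inhibitory dorsal neurons, were below the GABAergic level, with Lhx1 at 201 (AEVs) and 170 UMIs (PBS) in members and log2 ratios of -1.40 (AEVs) and -1.57 (PBS) to GABAergic neurons. Gbx1 was lower too, at 7.08 and 7.47 CPM in members against 28.4 and 38.7 CPM. Rorb, a nuclear receptor of dorsal inhibitory interneurons, stood at 160 (AEVs) and 134 CPM (PBS) in members and at 403 and 416 CPM in GABAergic neurons. Of the excitatory factors, Lmx1b was at 1.26 and 0.635 CPM and Tlx3 at 0.896 and 0.159 CPM in members, both near the floor. Ptf1a, which starts the inhibitory programme in the embryo, had 0 UMIs in both libraries' members.

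Factors of ventral inhibitory classes were seen at different rates, and a share of nuclei with a UMI does not give the size of a class. En1, the factor of V1 interneurons, was seen after thinning in 1.57% of AEVs and 1.87% of PBS members, and in 0.366% and 0.541% of GABAergic neurons. Foxp2, which marks a large V1 group, was seen in 13.5% and 12.9% of members, against 4.76% and 6.22% of GABAergic neurons. Gata3 of V2b interneurons was seen in 0.725% (AEVs) and 0.717% (PBS) of members, and Dmrt3 of the dI6 class in 0.604% and 0.861%. Esrrg, an orphan nuclear receptor, was one of the wider marks of the class, at 71.5% and 71.6% of members against 35.0% and 43.2% of GABAergic neurons.

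Over all genes with enough UMIs to test, 2.30% of 12874 genes were at least 2-fold higher in members than in GABAergic neurons in both libraries (296 genes) and 2.91% were at least 2-fold lower (374 genes). The 2 classes were defined on these same nuclei, so the counts are descriptions. The genes highest in members by the smaller of both libraries' ratios included parts of the perineuronal net, the matrix coat of fast-firing neurons. Acan, which encodes its proteoglycan aggrecan, stood at 13.2 CPM in AEVs and 19.8 CPM in PBS members, against 1.52 and 2.64 CPM in GABAergic neurons. Hapln1, which encodes a link protein of that coat, stood at 23.1 and 19.5 CPM, against 3.05 and 2.40 CPM. Scn4b, a sodium channel subunit tied to rapid repeated firing, stood at 39.3 and 43.9 CPM, against 4.38 and 6.49 CPM. Kcns3, a modifying subunit of voltage-gated potassium channels, stood at 35.0 and 36.5 CPM, against 6.47 and 7.45 CPM. The other genes at this end were the anion exchanger Slc4a9, the ATP-gated channel P2rx6, the steroid enzyme Hsd17b2, the nuclear receptor Esrrb and Trim43c, a member of a multigene family whose reads could be split among copies.

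Of the 12 genes of the perineuronal net list with at least 20 UMIs over both classes in each library, 8 were higher in members in both libraries, 6 of them at least 2-fold, 3 were lower and Vcan was split. Over all genes 2.30% were at least 2-fold higher in members, and the share higher by any amount is not given. Hapln2 was among the 8 but nearly even, at 18.6 (AEVs) and 13.3 CPM (PBS) in members against 18.3 and 11.1 CPM in GABAergic neurons. Hapln4 stood at 32.2 (AEVs) and 41.7 CPM (PBS) in members against 9.33 and 15.4 CPM in GABAergic neurons, Bcan (brevican) at 71.9 and 74.1 CPM against 29.3 and 19.9 CPM, and Tnr (tenascin-R) at 213 and 259 CPM against 96.3 and 113 CPM. Ptprz1, a phosphatase that binds the net and is abundant in glia, was lower, at 73.2 and 72.3 CPM in members against 293 and 307 CPM, as were Crtac1, at 96.0 and 83.2 CPM against 134 and 129 CPM, and Ncan (neurocan), at 8.07 and 8.18 CPM against 11.0 and 8.65 CPM. Genes higher in members were abundant in glia too. With both libraries pooled, Bcan stood at 408 CPM in astrocyte-marker nuclei and Hapln2 at 362 CPM in oligodendrocyte-marker nuclei. In excitatory neurons Tnr stood at 232 (AEVs) and 276 CPM (PBS), above its level in members. Acan stood there at 6.35 and 11.6 CPM, Hapln1 at 12.3 and 13.3 CPM, Hapln4 at 21.2 and 28.2 CPM and Bcan at 42.8 and 39.9 CPM. Each of these lay below its level in members but above that in GABAergic neurons. Pvalb, the calcium buffer parvalbumin of fast-firing interneurons, stood at 140 (AEVs) and 110 CPM (PBS) in members, against 31.4 and 28.8 CPM in GABAergic neurons.

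**Figure D2:**
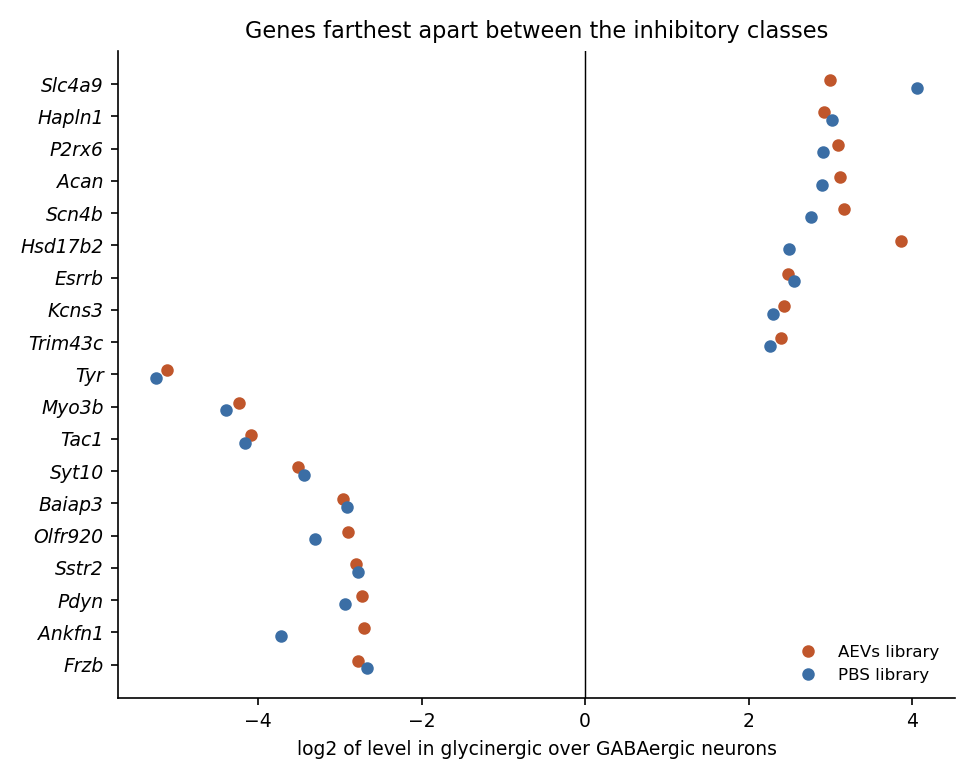
The log2 ratio of the level in glycinergic over GABAergic neurons, with 1 point per library, for the 9 genes highest and the 10 genes lowest by the named rule, Slc6a5 left out because the classes were defined on it. Every gene shown lies on the same side of 0 in both libraries, with Tyr lowest and Slc4a9, Hapln1 and P2rx6 at the other end.

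Genes lowest in members relative to GABAergic neurons included peptides and a peptide receptor of the dorsal horn. Tac1, the substance P precursor, stood at 6.72 CPM in AEVs and 6.99 CPM in PBS members, against 114 and 125 CPM in GABAergic neurons. Pdyn, the dynorphin precursor, stood at 6.36 and 3.57 CPM, against 42.1 and 27.4 CPM. Sstr2, a somatostatin receptor, stood at 10.1 and 5.88 CPM, against 70.6 and 40.1 CPM. Tyr, known as the enzyme of melanin synthesis, stood at 1.34 and 1.35 CPM, against 46.6 and 51.2 CPM. Myo3b, Syt10, Baiap3, Ankfn1, the Wnt antagonist Frzb and the odorant receptor gene Olfr920 completed this end, the last from a multigene family.

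Against excitatory neurons, 0.762% of 14164 genes (108) were at least 2-fold higher in members in both libraries and 2.27% (321) at least 2-fold lower. Apart from the transmitter genes, the highest were Pax8, Pax2, Tfap2b, Sall3 and Lhx5, which are transcription factors, and Gad1os, which overlaps Gad1 and cannot be told apart from it where strand was not stated to be used. The lowest, besides Slc17a6, included Cacna2d1, the calcium channel subunit to which gabapentin binds, at 33.5 CPM in AEVs and 37.7 CPM in PBS members against 1083 and 1142 CPM in excitatory neurons. Nrn1 (neuritin) stood at 6.63 and 4.45 CPM against 146 and 115 CPM, and the peptide precursor Nts (neurotensin) at 16.8 and 6.59 CPM against 293 and 170 CPM. Nmu, Adcyap1, C1ql3, Lmx1b, Tlx3 and Tmem163 were the others. The factors Pax2 and Pax8, high against excitatory neurons, were not above the GABAergic level, where Pax2 stood at 114 (AEVs) and 155 CPM (PBS) and Pax8 at 71.2 and 73.5 CPM.

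Members differed among themselves in calcium buffers and peptides. After thinning, Pvalb was seen in 33.6% of AEVs members (95% interval 30.4% to 36.9%) and 27.7% of PBS members (24.4% to 31.2%). Sst (somatostatin) was seen in 21.1% and 21.7%, Penk (enkephalin) in 25.5% and 19.7%, Npy (neuropeptide Y) in 17.9% and 14.9%, and Calb2 (calretinin) in 13.5% and 8.18%. Npy was seen in 44.7% and 47.0% of GABAergic neurons, and Penk in 40.7% and 34.6%. Gal (galanin), Pdyn, Tac1 and Cck were each seen in under 6% of members, from 1.87% to 5.56%. No single peptide covered the class.

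Among receptors for descending and local signals, Htr2c, a serotonin receptor, was seen in 77.8% of AEVs and 77.9% of PBS members, against 65.2% and 63.2% of GABAergic and 40.5% and 45.0% of excitatory neurons. Htr1f was seen in 30.8% and 34.4% of members, against 14.7% and 13.8% of GABAergic neurons, and Htr4 in 32.2% and 40.6%, against 14.8% and 18.4%. Chrm2, a muscarinic acetylcholine receptor, was seen in 61.1% and 62.0% of members. Chrm3 was lower in members, at 291 (AEVs) and 333 CPM (PBS), than in GABAergic neurons, at 791 and 1180.5 CPM.

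**Figure D3:**
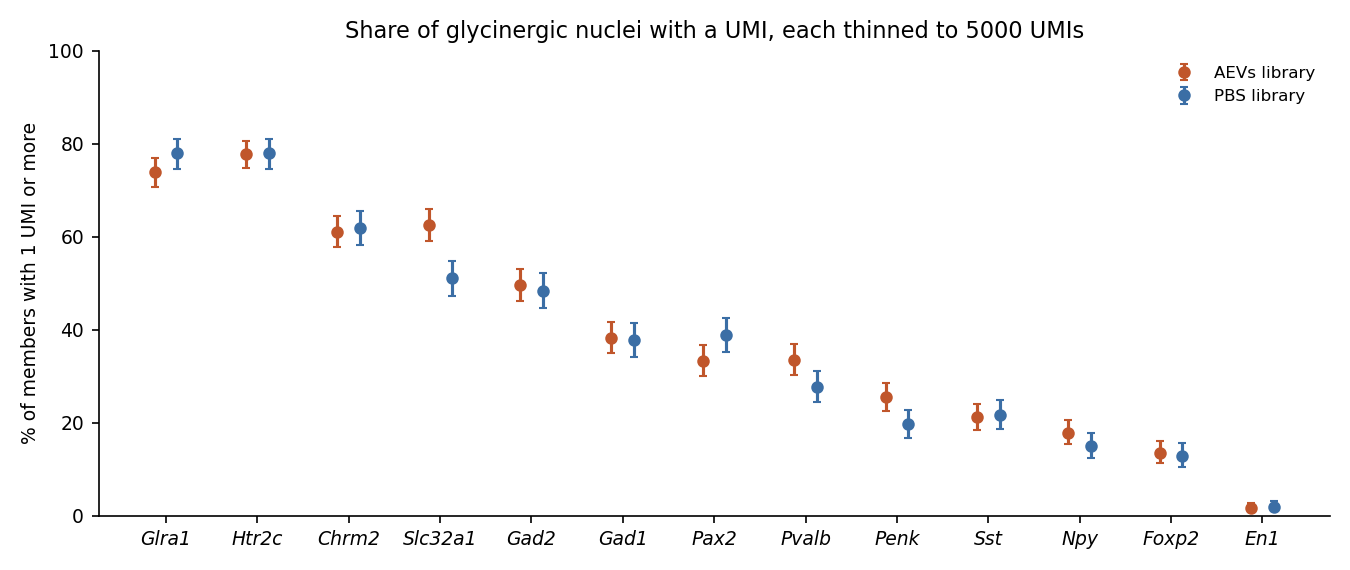
Share of glycinergic nuclei with at least 1 UMI of each gene after thinning to 5000 UMIs, AEVs left of PBS, with exact Clopper-Pearson 95% intervals (828 AEVs and 697 PBS nuclei). Glra1, Htr2c and Chrm2 are in over 60% of nuclei of both libraries, while Npy, Foxp2 and En1 are in under 20%, and the libraries' intervals lie apart for Slc32a1.

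Nfia, Nfib and Neurod2 are factors of late-born local neurons, and Zfhx3, Zfhx4 and the Onecut genes of early-born long-range neurons. Members were split on Zfhx3 and the level of Nfib was compared, which does not stand for every factor named. Nuclei with at least 2 UMIs of Zfhx3 numbered 279 (32.6%) in the AEVs and 292 (41.2%) in the PBS library, and their Nfib level was 66.7 (AEVs) and 80.1 CPM (PBS). In the 448 AEVs and 308 PBS members with 0 UMIs of Zfhx3, Nfib stood at 208 and 277 CPM. The summed level of Gad1 and Gad2 was 201 and 175 CPM in the Zfhx3 nuclei, against 356 and 401 CPM in those with 0. Slc6a5 differed little, at 300 and 277 CPM against 327 and 292 CPM. Members were also split by Gad1 and Gad2 together, at least 3 UMIs against 0. Zfhx3 then differed less, at 209 (AEVs) and 287 CPM (PBS) against 226 and 352 CPM. By that split Nfib was higher, at 166 and 184 CPM against 99.9 and 107 CPM. Nfia went the other way, at 180 and 244 CPM against 323 and 406 CPM. Nuclei with 2 or more UMIs of a gene were deeper, with medians of 14145 (AEVs) and 19712 UMIs (PBS) for Zfhx3, against 11209 and 15047 UMIs over all members.

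Nefh, the heavy neurofilament of large-calibre axons, divided members by the GABA enzymes but less by the other factors. The 176 AEVs and 275 PBS members with at least 2 UMIs of Nefh had 125 and 157 CPM of Gad1 and Gad2 together, against 352 and 416 CPM in the 511 and 264 members with 0. Zfhx3 stood at 221 and 334 CPM in the Nefh nuclei, against 199 and 268 CPM, and Nfib at 106 and 138 CPM, against 159 and 182 CPM. At the other end stood a small set with Cdh3 (P-cadherin), 57 AEVs and 68 PBS nuclei with at least 2 UMIs. In these, Gad1 and Gad2 together were at 446 and 430 CPM, Nfib at 370 and 353 CPM and Zfhx3 at 38.6 and 50.9 CPM. These subsets were chosen after values were seen and were defined on the same nuclei, so they carry no test.

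Hox genes, which record the position of a neuron along the cord, were seen in members from the paralogue groups of the thoracic cord and below. After thinning, Hoxb8 was seen in 30.8% of AEVs and 30.7% of PBS members, Hoxc8 in 25.5% and 28.4%, Hoxc9 in 17.6% and 13.5%, and Hoxc10 in 17.5% and 19.5%. Hoxd10 and Hoxd11, of the lumbar and lower cord, were at 3.99% (AEVs) and 5.02% (PBS), and at 7.00% and 6.60%. Of 29 Hox genes measured, 15 were higher in AEVs and 14 in PBS members, with a median log2 ratio of 0.01 beside 0.12 over all genes. Hoxb7 was the highest at a log2 ratio of 0.67 (interval 0.42 to 0.91), and Hoxd10 the lowest at -0.64 (-1.07 to -0.22).

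Members also differed in how much they had for making GABA. Of the members, 449 (52.5%) in the AEVs and 439 (61.9%) in the PBS library had at least 3 UMIs over Gad1 and Gad2 and are called Gad-rich. The 142 (16.6%) and 104 (14.7%) with 0 are called Gad-poor, and 264 and 166 lay between. Gad-poor members were no shallower, with a median of 12320.5 (AEVs) and 19859 UMIs (PBS) against 11845 and 14495 in Gad-rich members. Slc32a1 was nearly even, at 199 and 147 CPM in Gad-rich and 186 and 144 CPM in Gad-poor members. A count of 0 in 1 nucleus does not show that the enzymes were absent. Of 11207 genes, 1.97% (221) were at least 2-fold higher in Gad-rich members in both libraries and 0.375% (42) at least 2-fold lower. After each member was thinned to 5000 UMIs, 52 genes were higher and 20 lower. After neurons were thinned to 3000 UMIs, 7 were higher and 16 lower, the opposite balance. The split by Gad1 and Gad2 was made anew on the thinned counts, and at 3000 UMIs the members were too. The nuclei compared and the genes with enough UMIs therefore changed as well, and the cause of the changed balance was not tested.

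The genes farthest above in Gad-rich members were the receptors Rxfp2, Npsr1 and Tshr, the adhesion gene Cdh3, the chromatin protein gene Hmga2, the guidance gene Sema3e, Otof (otoferlin) and Trabd2b. Cdh3 stood at 29.2 (AEVs) and 32.9 CPM (PBS) in Gad-rich members, against 4.43 and 3.19 CPM in Gad-poor members. Sema3e stood at 66.7 and 59.7 CPM, against 14.8 and 13.7 CPM. Rxfp2, a receptor of insulin-like peptides, stood at 29.7 and 11.2 CPM, against 3.94 and 0.911 CPM. Trabd2b had 0 UMIs in PBS Gad-poor members and was at least 6.85-fold higher in PBS Gad-rich members, counted against 3 UMIs over the Gad-poor nuclei.

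The genes lowest in Gad-rich members included Hapln1, P2rx6 and Trim43c, which were also among the genes highest in members against GABAergic neurons. Hapln1 stood at 15.9 (AEVs) and 11.4 CPM (PBS) in Gad-rich members, against 46.8 and 43.3 CPM in Gad-poor members. P2rx6 stood at 5.64 and 7.22 CPM, against 21.7 and 31.0 CPM. Calb2 stood at 35.2 and 18.2 CPM, against 124 and 105 CPM. Rbm20, a splicing factor gene, stood at 22.2 and 29.0 CPM, against 70.4 and 74.7 CPM. Megf11, Trim43c, Sh3bgr and Grip1os2, an antisense gene of Grip1, completed this end. Acan was 9.29 and 13.2 CPM in Gad-rich and 21.2 and 34.1 CPM in Gad-poor members, and Onecut2 16.9 and 20.7 CPM against 28.5 and 55.1 CPM. Of 17 peptide genes with at least 20 UMIs over both sets in each library, 12 were higher in Gad-rich members in both libraries, 7 of them at least 2-fold, 2 (Nmb and Tac1) were lower and 3 were split. Over all genes 1.97% were at least 2-fold higher in Gad-rich members, and the share higher by any amount is not given. Npy stood at 175 (AEVs) and 99.4 CPM (PBS) against 63.0 and 12.3 CPM, and Pnoc at 87.1 and 77.9 CPM against 39.4 and 15.5 CPM. Sst stood at 178 and 163 CPM in Gad-rich and 66.5 and 46.9 CPM in Gad-poor members, although members with at least 2 Sst UMIs held 263 and 264 CPM of Gad1 and Gad2 together, against 289 and 279 CPM in members with 0.

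**Figure D4:**
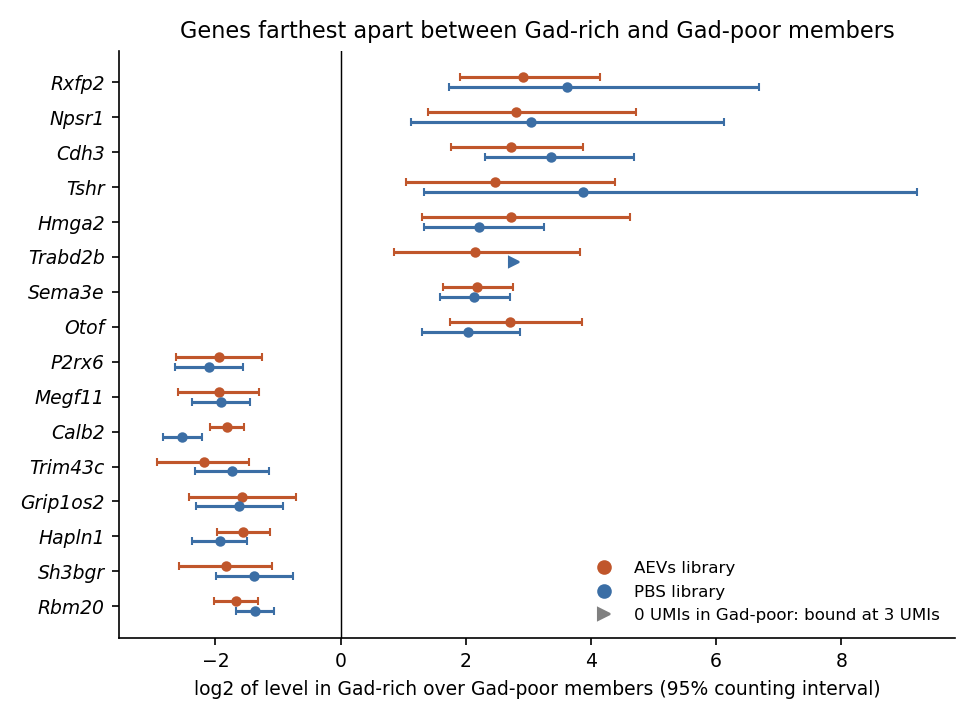
The log2 ratio of the level in Gad-rich over Gad-poor glycinergic nuclei for the 8 highest and 8 lowest genes by the named rule, with exact 95% counting intervals, AEVs above PBS for each gene; a triangle marks 0 UMIs in Gad-poor nuclei, drawn at the bound for 3 UMIs. Every interval drawn lies on 1 side of 0, with Cdh3 and Sema3e among the genes above 0 and Hapln1, Calb2 and P2rx6 below it.

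The AEVs and PBS libraries were then compared within members, and with 1 pooled library per group a difference cannot be told apart from one between pools of mice or library runs. Members were 16.2% of AEVs neurons (15.2% to 17.2%) and 19.2% of PBS neurons (17.9% to 20.5%), a ratio of 0.846 (0.765 to 0.936). The depth of the neurons differed, with a median of 8116 UMIs in AEVs and 10788.5 in PBS neurons. When every neuron was thinned to 3000 UMIs before the rule was applied, the shares were 3.95% (AEVs) and 4.51% (PBS), with a ratio of 0.876 whose interval of 0.709 to 1.08 held 1. GABAergic neurons had a ratio of 1.03 (0.907 to 1.17) and excitatory neurons 0.899 (0.833 to 0.971) over all UMIs. Of all passing nuclei members were 6.39% (AEVs) and 5.98% (PBS), while neurons were 39.4% and 31.2%.

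Of 14114 genes with at least 50 UMIs in members, 297 were at least 2-fold higher in the AEVs library (2.10%) and 102 at least 2-fold lower (0.723%), together 2.83%. The median log2 ratio over all tested genes was 0.12, and 63.6% of them were above 0. Among the 12 genes highest by the named rule, Ovgp1, known as an oviduct glycoprotein gene, had the most UMIs, at 33.0 CPM in AEVs and 8.58 CPM in PBS members (log2 ratio 1.94, 1.63 to 2.27). It was also higher in AEVs GABAergic neurons, at 37.3 against 15.1 CPM in PBS, and in excitatory neurons, at 49.8 against 13.7 CPM. Slc18a1, a vesicular monoamine transporter gene, stood at 7.44 (AEVs) and 1.59 CPM (PBS), and Apoa1, an apolipoprotein gene, at 10.6 and 3.34 CPM. Zfp46 stood at 11.4 and 3.49 CPM. The others, each with under 110 UMIs in AEVs members, were Chrna1os, Bub1b, Slc25a41, Vmn2r1, Myl1, Tnnt2, Rom1 and Nt5dc2, with log2 ratios from 1.67 to 2.26. Chrna1os is antisense to Chrna1 and Vmn2r1 belongs to a multigene family, so both are uncertain.

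Among the 12 lowest genes, Hsph1, a chaperone of the Hsp105 family, stood at 24.3 CPM in AEVs and 57.3 CPM in PBS members (log2 ratio -1.24, -1.45 to -1.04). It was lower in the AEVs library also in GABAergic neurons, at 29.7 and 67.8 CPM, and in excitatory neurons, at 25.6 and 63.7 CPM. Thsd4 stood at 56.7 (AEVs) and 128 CPM (PBS), Spink10 at 43.0 and 86.6 CPM, Morc2b at 24.2 and 52.9 CPM, and Ak7, an adenylate kinase of motile cilia, at 4.75 and 13.9 CPM. Nr4a3, an activity-regulated nuclear receptor, stood at 1.52 and 4.29 CPM. Mkks, Col20a1, Erich6, S100a9, a neutrophil gene, and Vmn2r87, of a multigene family, were the others apart from Cartpt, with log2 ratios from -1.41 to -1.05.

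Cartpt, the precursor of the CART peptide, had 178 UMIs in AEVs and 583 UMIs in PBS members, but 264 of the PBS UMIs (45.3%) came from 1 nucleus. It was found in 5.50% of AEVs and 7.62% of PBS members, and its log2 ratio of -1.54 was 3.12 after thinning every neuron to 3000 UMIs. The value therefore rested on few nuclei. GABAergic neurons had 75.6 (AEVs) and 93.0 CPM (PBS), and excitatory neurons 16.6 CPM in both.

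Housekeeping and stress lists set the libraries apart more evenly than single genes did. All 80 measured cytosolic ribosomal protein genes were higher in AEVs members, with a median log2 ratio of 0.71, and 80 of 80 were higher in GABAergic and in excitatory neurons too. Of 93 nuclear-encoded genes of oxidative phosphorylation, 87 were higher in AEVs members, with a median of 0.37. Mitochondrially encoded genes, on which the rule set a limit, were lower in all 13 cases, with a median of -1.07. All 6 cold-inducible genes were higher, led by Rbm3 at 137 CPM in AEVs and 51.1 CPM in PBS members and Cirbp at 77.2 and 29.1 CPM. Rbm3 differed alike in oligodendrocyte-marker nuclei, at 157 and 48.3 CPM. These differences were thus shared by classes other than the glycinergic one, and whether glycinergic neurons differed more was not tested.

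Of 20 glucocorticoid-responsive genes, 17 were higher in AEVs members, 5 of them at least 2-fold, with a median log2 ratio of 0.60. Over all tested genes 63.6% were higher in AEVs members and 2.10% at least 2-fold higher. Apod, which encodes apolipoprotein D, stood at 899 CPM in AEVs and 226 CPM in PBS members (log2 ratio 1.99, 1.93 to 2.05). In oligodendrocyte-marker nuclei it stood at 24395 (AEVs) and 4308 CPM (PBS), and its part in the level seen in neurons was not tested. Cebpb, a stress-induced transcription factor gene, stood at 9.95 and 2.30 CPM and Sult1a1, a sulfotransferase gene, at 3.77 and 0.477 CPM. In myeloid-marker nuclei Cebpb stood at 130 (AEVs) and 24.6 CPM (PBS) and Sult1a1 at 53.3 and 18.1 CPM. Both genes were also higher in the AEVs library in astrocyte- and oligodendrocyte-marker nuclei. The part of that RNA in the members' values was not tested. Zbtb16 was the lowest of the list, at 66.1 and 87.6 CPM. Of 22 interferon-stimulated genes, 20 were higher (median 0.58), with Irf7 at 1.70 and 0.556 CPM, Rtp4 at 9.95 and 4.45 CPM and Rsad2 at 1.88 and 0.874 CPM. Of 12 genes of MHC class I presentation, 10 were higher (median 0.39), led by H2-T23 at 11.8 and 5.00 CPM and Tapbp at 17.6 and 9.77 CPM. With both libraries pooled, H2-T23 stood at 102 CPM and Tapbp at 104 CPM in myeloid-marker nuclei, against 8.21 and 13.4 CPM in members. The part of myeloid RNA in the members' values was not tested for this list either. In GABAergic neurons 20 of 20 interferon-stimulated and 11 of 12 class I genes were higher.

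Injury and stress programmes were mixed, beside 63.6% of all tested genes higher in AEVs members. Of 16 targets of p53, 14 were higher in AEVs members (median 0.25), with Ccng1 at 15.9 (AEVs) and 7.47 CPM (PBS), Plk2 at 23.9 and 11.7 CPM and Cdkn1a, the cell cycle inhibitor p21, at 19.0 and 10.7 CPM. Cdkn1a's log2 ratio of 0.83 was 0.46 without members with 5 or more glial or myeloid UMIs, 0.08 with each member thinned to 5000 UMIs and -0.72 with neurons thinned to 3000 UMIs. Of 19 regeneration-associated genes 9 were higher and 10 lower (median -0.03). Atf3, a factor induced by axon injury, had 25 UMIs in 15 AEVs nuclei and 4 UMIs in 4 PBS nuclei, and Hspb1, a small heat shock protein, stood at 29.3 and 11.0 CPM. Of 17 heat shock chaperones 8 were higher and 9 lower, with Hspb1 at 1 end and Hsph1 and Cryab at the other, Cryab at 36.1 and 77.8 CPM. Both genes were abundant in astrocyte-marker nuclei, Cryab at 510 (AEVs) and 451 CPM (PBS) and Hspb1 at 1072 and 445 CPM. In oligodendrocyte-marker nuclei Cryab stood at 395 (AEVs) and 1305 CPM (PBS), lower in the AEVs library as in members, and the part of that RNA in the members' values was not tested.

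Of 23 genes of neurofilaments and the axonal cytoskeleton 9 were higher in AEVs members and 14 lower (median -0.08), with the neurofilament genes among the lowest. Nefh stood at 76.4 CPM in AEVs and 137 CPM in PBS members (log2 ratio -0.85, -0.97 to -0.73), Nefm at 172 and 259 CPM and Nefl at 119 and 177 CPM. Nefh, Nefm and Nefl were lower by similar amounts in GABAergic neurons, at log2 ratios of -0.92, -0.62 and -0.56. Of 36 potassium and HCN channel genes, 12 were higher and 24 lower (median -0.15), with Kcna2, a channel of axons, at 70.6 and 110 CPM. Of 25 glutamate receptor genes 7 were higher and 18 lower (median -0.12), with Grid1 at 384 and 585 CPM. No gene of either list passed 2-fold, and both medians lay below the 0.12 of all genes. Of 4 glycine receptor genes measured 3 were higher (median 0.08), and of 14 GABA receptor genes 8 were higher (median 0.03), with Gabrb2 at 155 and 119 CPM and Gabbr2 at 163 and 211 CPM. Of 8 early-born factors 1 was higher, Foxp2, at 98.8 and 82.6 CPM, while Zfhx3 stood at 215 and 304 CPM and Onecut2 at 19.8 and 29.2 CPM.

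Lists of release, wiring and rhythm had medians near 0, beside 0.12 over all genes. Of 27 genes of vesicle release 11 were higher (median -0.05), of 24 sodium and calcium channel genes 11 (median -0.04), of 30 genes of axon guidance 8 (median -0.07) and of 11 chloride transport genes 7 (median 0.04). Of 17 immediate early genes 9 were higher (median 0.00), and of 18 circadian clock genes 11 (median 0.13). The integrated stress response list was wider, with 12 of 19 higher (median 0.39), from Chac1, a glutathione-degrading enzyme gene, at a log2 ratio of 1.72 with 35 and 12 UMIs, to Slc7a11, the cystine transporter gene, at -0.78. Of 14 antioxidant genes 10 were higher (median 0.19), near the 63.6% of all tested genes, and none reached 2-fold. Stmn1, a microtubule regulator of growing axons, stood at 114 CPM in AEVs and 72.7 CPM in PBS members.

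Of 20 peptide genes 15 were higher in AEVs members (median 0.20), a share near the 63.6% of all tested genes. Npy stood at 138 CPM in AEVs and 75.3 CPM in PBS members (log2 ratio 0.87, 0.76 to 0.99), and its ratio was -0.05 in GABAergic and -0.19 in excitatory neurons. It was found in 24.7% of members in both libraries before thinning, and in 17.9% (AEVs) and 14.9% (PBS) at the matched depth of 5000 UMIs. Penk stood at 136 and 89.2 CPM in members, and was higher in AEVs GABAergic neurons too, at 346 against 195 CPM. Nts stood at 16.8 and 6.59 CPM, but 88 of its 187 AEVs UMIs came from 1 nucleus. Slc32a1 was higher in AEVs members, at 197 against 145 CPM (log2 ratio 0.45, 0.36 to 0.54), and likewise in GABAergic neurons, at 207 against 157 CPM.

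**Figure D5:**
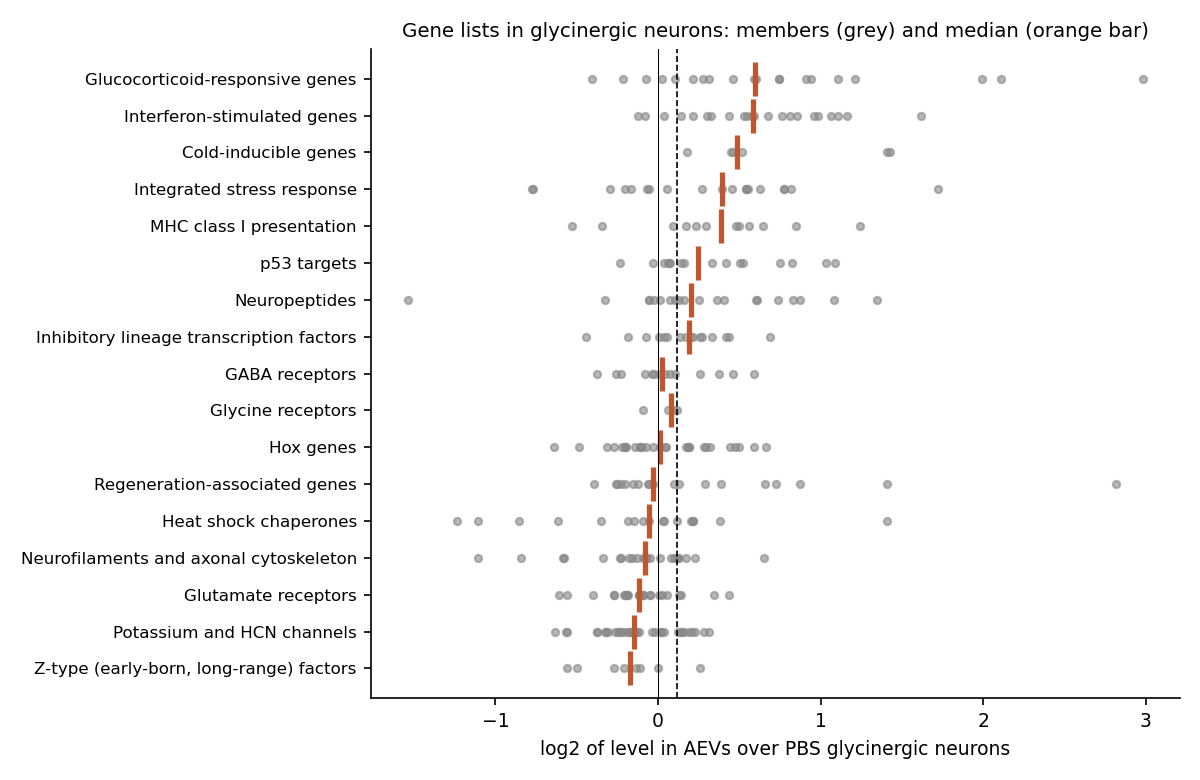
Log2 ratio of the level in AEVs over PBS glycinergic neurons for the genes of 17 lists with at least 20 UMIs (grey points) and the median of each list (orange bars); the dashed line is the median of all tested genes, 0.12. Medians of the glucocorticoid-responsive, interferon-stimulated and cold-inducible lists are 0.60, 0.58 and 0.49, and those of the channel, glutamate receptor and early-born factor lists lie below 0.

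RNA of markers of other cell types in members differed between the libraries. The 10 oligodendrocyte markers summed to 862 CPM in AEVs and 1164 CPM in PBS members, with 3 of 10 higher, and the 10 astrocyte markers to 1349 and 1603 CPM, with 1 of 10 higher. The 8 markers of oligodendrocyte precursors summed to 662 and 770 CPM. Gpc5 made up 1042 (AEVs) and 1167 CPM (PBS) of the astrocyte sum, and stood at 1773 and 2168 CPM in GABAergic neurons. Lhfpl3 made up 605 and 708 CPM of the precursor sum, and stood at 497 and 705 CPM in excitatory neurons. These 2 sums therefore do not measure RNA of other cell types alone. The 12 markers of microglia and macrophages summed to 371 and 312 CPM, with 7 of 12 higher. The 10 of vessels and fibroblasts summed to 54.7 and 80.8 CPM, with 5 of 10 higher. Among these the vessel genes Flt1, Pecam1, Cldn5 and Rgs5 were higher in AEVs members, at log2 ratios from 0.43 to 0.78. The intervals of Flt1 (-0.08 to 0.94) and Pecam1 (-0.17 to 1.34) held 0. Pdgfrb of the same list was lower, at -0.83 (-1.70 to 0.005), with 19 UMIs in AEVs and 38 in PBS members. The collagen genes were lower, with Col1a1 at 1.43 (AEVs) and 14.2 CPM (PBS), Col3a1 at 2.06 and 9.05 CPM and Col1a2 at 5.38 and 15.1 CPM. No marker that defines these classes was at 0 in members. Their part in the differences above was not tested, other than by leaving out the members with 5 or more glial or myeloid UMIs, after which Hspb1 had a log2 ratio of 1.67 and Rbm3 of 1.18.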

How the data were processed

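Nuclei from cord frozen in liquid nitrogen were profiled with a droplet kit that reads the 3′ end of polyadenylated RNA, per the labels' protocols. The authors deposited unscaled UMI counts for each gene in each barcode. The build mm10 and Seurat are named in the submitters' processing notes, and the aligner, the annotation, the strand used in counting and any removal of free RNA or doublets are steps not given in the sources used here, and no doublet caller was run. Nuclear RNA read at the 3′ end favours some genes over others.

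From the counts, each gene's UMIs were added up over the nuclei of a class in 1 library and set over all UMIs of that class, with exact Poisson intervals for levels, exact conditional binomial intervals for ratios and Clopper-Pearson intervals for shares, at 95% (Python 3.11.15, numpy 2.4.6, scipy 1.17.1, pandas 2.3.3). A gene was counted past the threshold at 2-fold, with at least 50 UMIs over both libraries, and list members needed 20. With 1 library per group no test was possible and no p-value is given, so differences between the libraries cannot be told apart from differences between pools of mice or library runs. The ratios were tested on simulated Poisson counts and the thinning on a simulated matrix. The simulated counts were not grouped in single nuclei, as those of Cartpt were, so the intervals were not tested for such genes. Members and gene lists were chosen with earlier results of these data known. Genes were named by rule: the 12 highest and 12 lowest ratios between libraries with at least 50 UMIs in the higher library, found in 5% of its members and at 0.25 or more of the highest other class; the 10 and 10 against other neurons; the 8 and 8 between Gad-rich and Gad-poor members, where the 5% limit was left out and the 8 lowest needed 50 UMIs over both sets and 10 in Gad-poor nuclei, a change from the rule as first written, since Gad-poor nuclei were few; and list members by level or by the 3 highest and 3 lowest ratios. Mitochondrial, ribosomal, hemoglobin and predicted genes were left out of the first 3, as were genes named by a clone. Other genes named, including those of the subsets by Zfhx3, Nefh and Cdh3, were chosen after their values were seen. Of the 4 marker genes 4 were found in the RefSeq promoter table.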

Additional observations from a re-analysis of the deposited data

Results flagged for a closer look

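Of the listed and named genes, 6 stood in opposite directions in glycinergic and in another class of neurons, each past 1.5-fold and past its counting interval. The share of all genes that would meet this rule is not given, so the 6 are only a list for a closer look. With 1 library per group these differences were not tested. Against excitatory neurons, Atf3 had a log2 ratio of AEVs over PBS of 2.82 in glycinergic neurons (25 and 4 UMIs) and -0.93 in excitatory neurons (42 and 83 UMIs). Pdyn had 0.83 in glycinergic (71 and 45 UMIs) and -0.79 in excitatory neurons (73 and 131 UMIs). Mafa had -1.20 (10 and 26 UMIs) and 0.73 (284 and 177 UMIs). The vascular gene Cldn5 had 0.78 in glycinergic (47 and 31 UMIs) and -1.18 in excitatory neurons (20 and 47 UMIs). Rgs5, a gene of pericytes, had 0.68 (54 and 38 UMIs) and -1.12 (24 and 54 UMIs). Cldn5 was found in only 1.87% of AEVs and 1.83% of PBS members, and Rgs5 in 1.64% and 2.12%. The counting intervals do not allow for UMIs grouped in few nuclei, and the part of vascular RNA in these values was not tested. Against GABAergic neurons, Nupr1, a stress-response gene, had -0.77 in glycinergic (27 and 52 UMIs) and 0.91 in GABAergic neurons (38 and 16 UMIs).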

How the results depend on the processing

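No paired analysis was possible because each group is 1 library, and no replicate could be left out. The share ratio of 0.846 was 0.743 with a minimum of 3 Slc6a5 UMIs. Of 12 alternatives for each count, the 297 higher and 102 lower genes were 618 and 249 with a minimum of 20 UMIs, 65 and 31 with 200, and 1592 and 395 at 1.5-fold. They were 108 and 27 with neurons thinned to 3000 UMIs, and 191 and 49 with members thinned to 5000 UMIs, where fewer UMIs were counted. Without members with 5 or more glial or myeloid UMIs the lower count was 47, and Gad-rich members had 117 higher and 19 lower genes. Thinning to 3000 UMIs gave 7 higher and 16 lower genes for Gad-rich members, turning the balance, and to 5000 gave 52 and 20. Against GABAergic neurons, thinning to 3000 gave 26 higher and 52 lower genes and to 5000 gave 147 and 183, and 166 were lower than in excitatory neurons at 3000. List medians at 3000 UMIs were 0.68 for cold-inducible, 0.23 for glucocorticoid-responsive and 0.87 for ribosomal protein genes. Scaling by the median ratio gave 0.37, 0.26 and 0.60 for cold-inducible, oxidative phosphorylation and ribosomal protein genes, and moved all log2 ratios by 0.12, so lists with a median between 0 and 0.12 changed sign. At 3000 UMIs Cartpt turned to 3.12, Mkks to 1.70 and S100a9 to 0.28, where few UMIs were left. The causes were not tested. Thinning to 5000 UMIs and leaving out shared barcodes were chosen after seeing the data. Of 448 list medians 410 moved by less than the typical counting error of 1 member gene, and of 366 values of single genes 297 stayed within their interval.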
